A study of Mus musculus with 19 samples.

Results

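Bin1, Picalm, Cd2ap, Sorl1, Fermt2, Ptk2b, Mef2c and Epha1 are the mouse counterparts of 8 human genes named at risk loci for late-onset Alzheimer's disease. They were picked by name from the count table, with no measured value used, and make up 8 of its 20655 gene IDs. Earlier results of these data were known when they were chosen. RNA came from left hippocampi of 19 mice, all 4 months old and all hemizygous for the 5xFAD transgenes (5xFADHEMI in the labels). These transgenes make mutant human amyloid precursor protein and presenilin 1 from a neuronal Thy1 promoter, so every group carries amyloid pathology and no group here lacks it. With 5xFAD alone (called 5xFAD mice here) there were 5 females and 5 males, and 4 females and 5 males were also homozygous for a clusterin knock-in, CLUh2kbKIHO (called knock-in mice). What the knock-in changes in the clusterin gene is not spelled out in the labels. The trailing numbers in the titles do not interleave between genotypes, so anything that goes with those numbers cannot be told apart from genotype. All groups are of whole tissue, in which fewer cells of a type and less RNA per cell cannot be told apart.

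Most of these genes serve the traffic of membrane or the grip of a cell on its surroundings. In endocytosis, PICALM gathers clathrin and senses membrane curvature, BIN1 bends and tubulates membrane with its BAR domain, CD2AP ties endocytic membrane to actin, and SORL1 sorts amyloid precursor protein between endosomes and the Golgi. In adhesion, kindlin-2 (Fermt2) switches integrins on, the kinase PYK2 (Ptk2b) signals beside them and in response to calcium, and EPHA1 is a receptor for ephrins on neighbouring cells. MEF2C is a transcription factor of neurons and microglia that acts in synapse number and neuronal survival.

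The tested members were present at widely different levels. On a scale of counts per M counts of the library (CPM, where M stands for mega) per kilobase of the longest annotated transcript, Ptk2b was highest at 184.8 ± 26.5 (SD, n = 19) and ranked 211 of 17787 tested genes with a length. Bin1 followed at 97.97 ± 12.5 (rank 492). Sorl1 (29.7 ± 3.91), Mef2c (29.2 ± 11.1) and Fermt2 (23.6 ± 2.67) were neighbours in level whose ranges overlapped, and Picalm came next at 18.5 ± 1.61 (all SD, n = 19). Cd2ap stood lower, at 5.44 ± 1.18 and rank 8440. With all annotated exons merged in place of the longest transcript, the mean of Fermt2 (14.95) lay above that of Mef2c (11.7), so the order of these 2 depends on the length used. Epha1 was near the floor of the assay and is described separately.

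RefSeq promoter windows on GRCm38.p6 were found for 6 of the 8 members, and 2 are shown because they are the ends of the range in CpG content. The first windows of Picalm, Fermt2, Cd2ap and Sorl1 held 39, 31, 31 and 26 CpG pairs in the 250 bases before the start, against a median of 6 and an upper quartile of 16 over 32851 windows. The window of Epha1 held 9, and the first window of Mef2c held 1. Further windows of Mef2c held 6 and 4, and the second window of Sorl1 held 9. Among the 7 members tested for genotype, Picalm and Mef2c also had the smallest and the largest spread in level between mice of a group, as given below. However, Cd2ap, with 31 CpG pairs, had a larger SD of log2 CPM within groups (0.32) than Sorl1 with 26 (0.21). Whether promoter and spread are related was not tested. The sequences run 5′ to 3′ on the gene's own strand, up to the outermost annotated start, with CpG pairs in capitals. The first lies at chr7:90129963-90130191 (plus strand) and the second at chr13:83503784-83504016 (plus strand).
Picalm: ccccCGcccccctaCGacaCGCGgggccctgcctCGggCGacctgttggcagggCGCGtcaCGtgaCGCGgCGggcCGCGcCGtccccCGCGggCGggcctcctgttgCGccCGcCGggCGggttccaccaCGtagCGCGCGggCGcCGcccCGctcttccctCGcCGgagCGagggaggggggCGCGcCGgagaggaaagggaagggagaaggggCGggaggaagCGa
Mef2c: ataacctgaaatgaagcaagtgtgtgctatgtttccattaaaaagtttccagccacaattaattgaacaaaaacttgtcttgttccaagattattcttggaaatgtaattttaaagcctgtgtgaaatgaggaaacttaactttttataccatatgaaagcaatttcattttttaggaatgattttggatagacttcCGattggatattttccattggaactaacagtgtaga
In the shown bases, Picalm had 5 matches to the GC box GGGCGG and none to CCAAT or TATAAA. Mef2c had 2 matches to CCAAT, 1 to TATAAA and none to GGGCGG. Both strands were searched. Of all windows, 32.7% held GGGCGG, 33.8% CCAAT and 12.4% TATAAA.

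The main comparison asks whether the clusterin knock-in goes with a different RNA level of these risk genes in a hippocampus that carries amyloid. None of the 7 tested members passed the threshold (edgeR quasi-likelihood test, adjusted p below 0.05 after Benjamini-Hochberg adjustment over 18204 genes). Few genes of any kind did, with 4 of 18204 (0.022%). The log2 changes, knock-in minus 5xFAD over both sexes, ran from -0.28 (Mef2c) to 0.07 (Fermt2), with 4 of 7 above 0 and a median of 0.03. The median over all tested genes was -0.0013. At an unadjusted p below 0.05, 0 of 7 members and 2166 of all genes passed. The 95% intervals show how large a change could have gone unseen. For Picalm the interval ran from -0.10 to 0.18, for Fermt2 from -0.08 to 0.22 and for Sorl1 from -0.16 to 0.21 on the log2 scale. For Mef2c it was much wider, from -0.75 to 0.18.

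**Figure D1:**
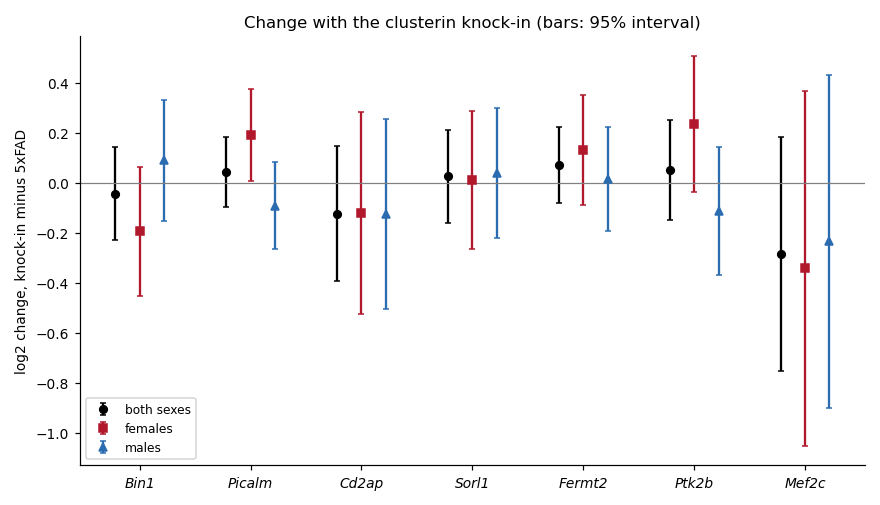
Log2 change with the clusterin knock-in for the 7 tested risk genes (y axis, knock-in minus 5xFAD, edgeR fit), over both sexes and in each sex, with 95% intervals. In females the interval of Picalm (0.01 to 0.37) lies just above 0, no adjusted p is below 0.05, and Mef2c has the widest bars.

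Among the endocytic members, Picalm varied least between mice. In 5xFAD females 1 to 5 it stood at 126.9, 151, 144.5, 145.7 and 137.1 CPM, and in knock-in females 1, 2, 4 and 5 at 149.8, 172.5, 161.6 and 160 CPM. Thus 3 of 4 knock-in females lay above the highest 5xFAD female, and the groups overlapped through knock-in female 1. In males the values were 168.1, 158.2, 169.5, 137.8 and 156.5 CPM in 5xFAD mice 6 to 10. In knock-in males 6 to 10 they were 137, 138.1, 164.6, 161.7 and 140.5 CPM, which overlapped widely with the 5xFAD males. The change in females was 0.19 on the log2 scale (SE 0.09, unadjusted p = 0.0422, edgeR adjusted p = 0.206) and that in males -0.09 (edgeR adjusted p = 0.883). The difference between the sexes was 0.28, with a 95% interval of 0.03 to 0.53 (unadjusted p = 0.0305, edgeR adjusted p = 0.227). Neither passed after adjustment. Among all genes 4028 (22.1%) had an unadjusted p below 0.05 in females and 3225 (17.7%) in the interaction, so a p of this size was common. With the authors' normalized values over all libraries the female change of Picalm was 0.06 and the difference between the sexes 0.07. In those values knock-in females stood at 3281, 3191, 2876 and 2909, all within the 5xFAD female range of 2665 to 3326.

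Bin1, the membrane-bending adaptor, had lower values in knock-in than in 5xFAD females, without passing the threshold. It stood at 306.8, 256.7, 280.3, 272.3 and 250.9 CPM in 5xFAD females and at 256.3, 194.6, 229.8 and 275.6 CPM in knock-in females. Knock-in females 2 and 4 lay below the lowest 5xFAD female, and the other 2 within the 5xFAD range. In males the 5xFAD range of 196.8 to 315.9 CPM contained all 5 knock-in values, from 255.1 to 305.4 CPM. Its log2 change in females was -0.19, with an edgeR adjusted p of 0.377. In males it was 0.09 (0.926) and over both sexes -0.04 (0.895). The female change was -0.06 with the authors' normalized values and -0.12 without knock-in female 2. A noncoding gene, A830052D11Rik, overlaps Bin1 on the opposite strand, and the strandedness of the libraries is not given in the sources used here, so their reads may not have been told apart.

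Cd2ap, the actin linker, was the lowest of the tested members and spread widely in one group. The 5xFAD males ranged from 20.3 CPM (mouse 10) to 49.9 CPM (mouse 6), while the other 14 libraries lay between 23.5 and 37 CPM. The groups overlapped in both sexes. The log2 change was -0.12 (SE 0.13, edgeR adjusted p = 0.761) over both sexes and -0.12 in each sex taken alone. Without 5xFAD male 6 the change in males was 0.09, so its sign rests on that mouse, and that over both sexes was -0.02. Without knock-in female 1 the change in females was -0.0065.

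Sorl1, the sorting receptor, differed little between group means, which were 313.9 ± 13.1 CPM in 5xFAD females (SD, n = 5), 316.7 ± 57.8 in knock-in females (SD, n = 4), 316.4 ± 30 in 5xFAD males (SD, n = 5) and 325 ± 65.2 in knock-in males (SD, n = 5). The knock-in mice spread more widely, from 229.4 CPM (male 7) to 400.2 CPM (female 2), against 274.4 to 355.7 CPM in 5xFAD mice. Of 9 knock-in mice, 3 lay above and 2 below every 5xFAD mouse. No test of the spread itself was made. The log2 change was 0.03 (SE 0.09, edgeR adjusted p = 0.939).

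Of the adhesion members, Fermt2 stood at 71.6 ± 3.77 CPM in 5xFAD females (SD, n = 5) and 78.4 ± 5.49 CPM in knock-in females (SD, n = 4), with 2 of 4 knock-in values above the highest 5xFAD value. The log2 change in females was 0.13 (edgeR adjusted p = 0.501). In males the means were 79.9 ± 12.4 CPM in 5xFAD mice (SD, n = 5) and 80.8 ± 9.52 CPM in knock-in mice (SD, n = 5). The highest level of any mouse, 101.4 CPM, was in 5xFAD male 6, the mouse in which Cd2ap was also highest by CPM. In the authors' normalized values this mouse was highest for neither gene. Its Fermt2 was 1770 there, against 1877 in knock-in male 6, and its Cd2ap 780, against 858 in knock-in male 10.

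Ptk2b, the calcium-responsive kinase and the most abundant member, showed an arrangement in CPM like that of Picalm. In 5xFAD females it stood at 731, 678, 689.6, 556.2 and 778.7 CPM, and in knock-in females at 701.4, 875.3, 877 and 783.1 CPM. Again 3 of 4 knock-in females lay above every 5xFAD female, with knock-in female 1 within the 5xFAD range. In males the order was not the same, at 632.1, 901.8, 714.5, 805.9 and 839.5 CPM in 5xFAD mice and 947.3, 668.1, 645.6, 720.5 and 622.4 CPM in knock-in mice. In the authors' normalized values Ptk2b stood at 13165, 11291, 14098, 9356 and 16331 in 5xFAD females. Knock-in females stood at 11849, 18548, 18579 and 16855 there, so the same 3 lay above every 5xFAD female. For Picalm no knock-in female did so in those values, so the likeness of these genes depends on the scaling. From the counts, the log2 change of Ptk2b in females was 0.24 (SE 0.13, edgeR adjusted p = 0.299). In males it was -0.11 (edgeR adjusted p = 0.912), and the difference between the sexes was 0.35 (95% interval -0.03 to 0.72, edgeR adjusted p = 0.322).

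Epha1 was detected at 1 to 19 counts per library, 119 in all 19, and failed the low-count filter. Knock-in females held 2, 4, 19 and 11 counts and 5xFAD females 4, 9, 10, 7 and 6. Knock-in males held 1, 4, 2, 9 and 12 counts, and 5xFAD males 2, 3, 3, 7 and 4. The groups overlapped in both sexes. The exact 95% Poisson interval was 11.4 to 29.7 around the 19 counts of knock-in female 4 and 0.0253 to 5.57 around the single count of knock-in male 6, and it covers counting error only. Summed over mice there were 55 counts in 5xFAD and 64 in knock-in mice. Without the low-count filter the log2 change of Epha1 over both sexes was 0.36 with an SE of 0.47 (edgeR adjusted p = 0.833). Zyx lies opposite Epha1 on chromosome 6 and overlaps it, so without strand some of these counts may be its reads.

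Mef2c, the transcription factor, varied most of the 7 tested members. Its level ran from 101 to 389.4 CPM over the 19 libraries. In 5xFAD males 6 to 10 it stood at 238.7, 101, 389.4, 174.8 and 108.1 CPM, a range that contained all 5 knock-in males (133 to 208.7 CPM). In 5xFAD females 1 to 5 it stood at 170, 145.1, 211.2, 298.5 and 164.4 CPM, and in the knock-in females at 107.6, 165.1, 136.3 and 215.7 CPM. Knock-in females 1 and 4 lay below the lowest 5xFAD female. In the authors' normalized values these mice also did, at 2907 and 2227, against 3096 to 7144 in 5xFAD females. The log2 change was -0.28 (SE 0.22, edgeR adjusted p = 0.657) over both sexes. It was -0.08 without 5xFAD male 8, and in males it turned from -0.23 to 0.15 without that mouse. The SD of log2 CPM within groups was 0.52 for Mef2c, against 0.11 for Picalm and 0.32 for Cd2ap.

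**Figure D2:**
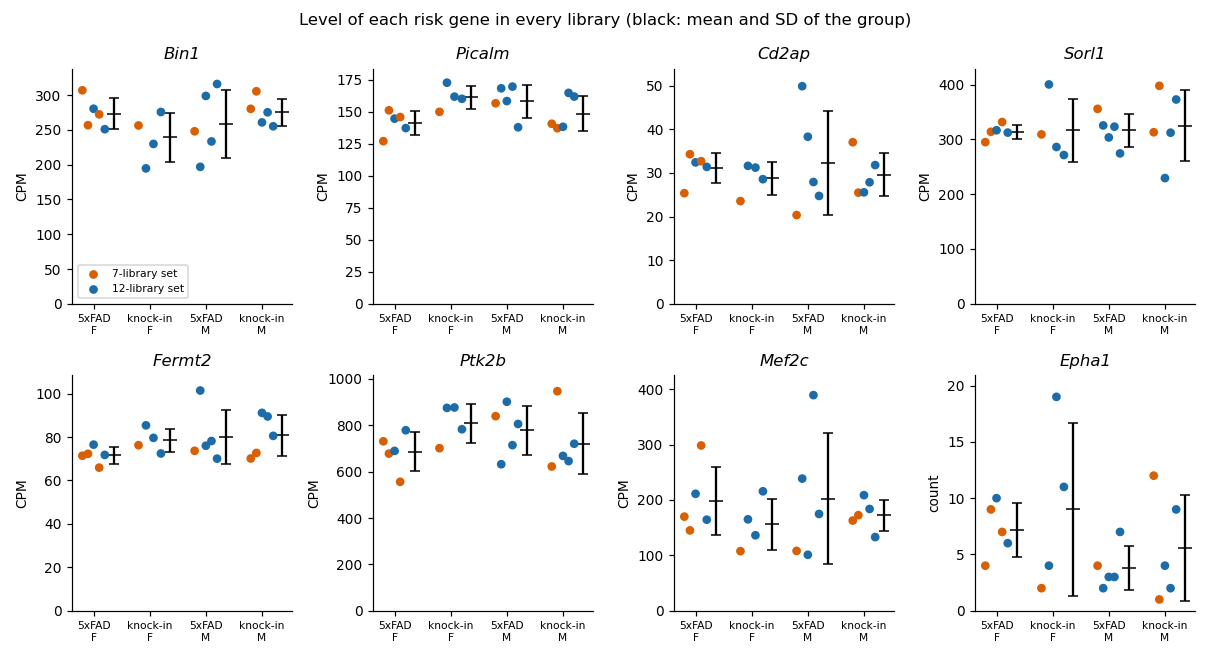
Level of each of the 8 risk genes in every library (y axes in CPM, counts for Epha1, from 0), by group, with the mean and SD of the group in black. Every pair of genotype groups overlaps, and the 5xFAD males hold the highest Cd2ap, Fermt2 and Mef2c values (49.9, 101.4 and 389.4 CPM). Orange and blue mark 2 sets of libraries described in the text.

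Sex differences were read in each genotype. None of the 7 members passed in 5xFAD mice, where 0.0385% of all genes did, or in knock-in mice, where 0.0494% did. In 5xFAD mice the largest difference, female minus male, was that of Ptk2b at -0.18 (edgeR adjusted p = 0.601), and in knock-in mice that of Bin1 at -0.20 (edgeR adjusted p = 0.492). In males alone 0 of 18204 genes passed between genotypes (0%), 1187 with an unadjusted p below 0.05, and DESeq2 gave 19. In females alone 5.56% of genes passed and in the interaction 0.308%, and 0 of 7 members did in either. Across 33 other settings of test, scaling, filter, covariate and libraries, 0 of the tested members passed in any comparison that was run, and the lowest adjusted p was 0.121.

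The authors' normalized values show a division of the libraries that bears on these genes. Those values differ from the counts by a factor for each gene in each library, and the factors fall into 2 sets along their first component (40.9% of the variance over 14570 genes). One set has 7 libraries (knock-in female 1, knock-in males 6 and 10, 5xFAD females 1, 2 and 4 and 5xFAD male 10) and the other the remaining 12. This division was drawn after seeing the data, at the widest gap of that component (0.222, with the next widest at 0.156). No batch is given in the labels. Across genes the factor rose with the GC content of the RNA in each library of the 7 (Pearson r from 0.321 to 0.636) and fell with it in each of the 12 (r from -0.608 to -0.108). These correlations are over genes, which are not independent replicates.

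The risk genes lie on both sides of this gradient. For AT-rich members the log2 factor was lower in the 7-library set, with a mean difference of -0.47 for Mef2c (40.8% GC), -0.36 for Cd2ap (38.4%), -0.36 for Fermt2 (45.9%) and -0.25 for Picalm (42.1%). For the GC-rich Ptk2b (54.2%) and Bin1 (55.3%) it was higher by 0.31 and 0.23, and for Sorl1 (50.7%) it differed by 0.05. The median tested gene had 49.2% GC. For each of the 7 the difference was larger in size than its change with genotype over both sexes. For 6 of these 7 genes the factors of the 2 sets did not overlap, and Sorl1 was the exception. The sets were drawn from these same factors, with the 7 genes among those used. Such differences therefore follow in part from how the sets were drawn and are a description only. The share of all genes without overlap was not counted. Both genotypes are in both sets (3 knock-in and 4 5xFAD mice in the 7, 6 of each in the 12). Of the females, however, 3 of 5 5xFAD mice and 1 of 4 knock-in mice were in the 7-library set. That knock-in mouse is number 1, the one that stayed within the 5xFAD female range of Picalm and Ptk2b in CPM. It was also within that range in the authors' normalized values, at 3281 for Picalm and 11849 for Ptk2b. The part of the set in the values of this 1 mouse was not tested.

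**Figure D3:**
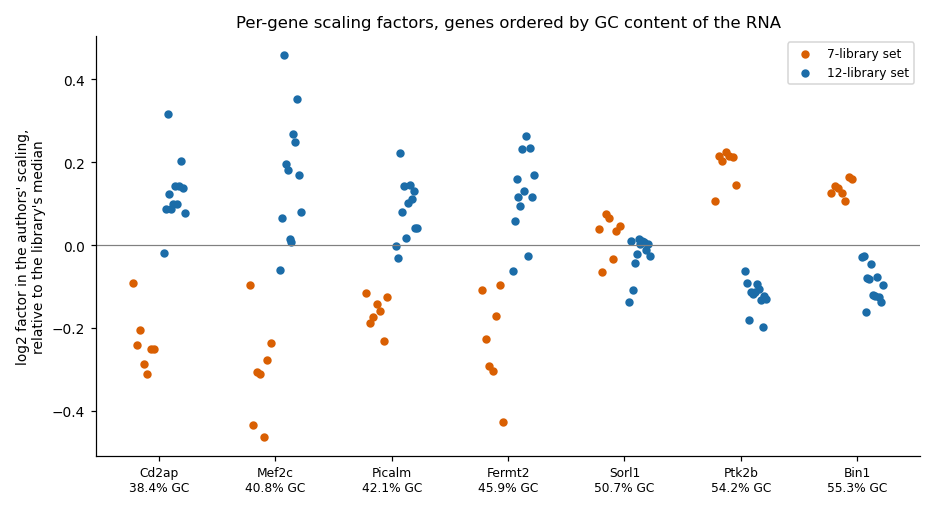
Log2 factor between count and the authors' normalized value, relative to the library's median (y axis), for each tested risk gene ordered by GC content (x axis), 1 point per library. The 7-library set lies low for Cd2ap, Mef2c, Picalm and Fermt2 and high for Ptk2b and Bin1, with set means apart by -0.47 (Mef2c) to 0.31 (Ptk2b). The sets were drawn from these same factors over many genes.

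Within each set 0 of the 7 members passed between genotypes. Of all genes, 129 of 18554 passed in the 12-library set and 0 of 18985 in the 7-library set. In the 12-library set the log2 change, with edgeR's adjusted p, was -0.26 for Mef2c (0.718), -0.20 for Cd2ap (0.534), 0.11 for Fermt2 (0.628) and 0.08 for Picalm (0.695). In that set Bin1 (-0.06), Sorl1 (0.01) and Ptk2b (-0.01) lay nearer 0. In the 7-library set the values ran from -0.18 (Mef2c) to 0.10 (Cd2ap), with an edgeR adjusted p of 1.00 for all 7. With the set as a covariate the female change of Picalm was 0.16 (edgeR adjusted p = 0.298) and that of Ptk2b 0.24 (0.341). The factors themselves did not differ between genotypes within a sex past the threshold for any member (limma adjusted p from 0.727 to 0.919 in females and 0.951 in males), where 0% of all genes did.

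Another measure had separate ranges in the 2 genotypes of females. The mean log2 CPM of 8 long noncoding RNAs (Malat1, Neat1 and 6 others) averaged 8.21 ± 0.17 over the 5xFAD females (SD, n = 5) and 6.53 ± 0.43 over the females with the knock-in (SD, n = 4). Among males it averaged 7.67 ± 0.74 without (SD, n = 5) and 7.81 ± 0.53 with the knock-in (SD, n = 5). The part of this level in the values of the risk genes was not tested. With this level as a covariate the female changes were 0.18 for Picalm, 0.07 for Ptk2b and -0.04 for Bin1, all with an edgeR adjusted p of 1.00. As the female ranges are separate, that fit can hardly tell level from genotype in females. Library totals were 17.28 to 25.2 M counts, and were 17.8 to 19.3 M in 5xFAD females and 19.7 to 25.2 M in knock-in females. Markers checked the labelled tissue. The summed level of 10 pyramidal cell genes, of which Ocm failed the filter, was 1937 to 3159 CPM, and that of 8 dentate granule cell genes 360.2 to 686.7 CPM.

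The genes whose level followed each member most closely over the 19 libraries, once group means were removed, were ranked among 13066 protein-coding genes. They are the top of a long list, so the correlations below are a description and carry no p. All libraries share the depth and GC differences given above. Among the genes most like Mef2c were Plxnd1, a semaphorin receptor (Pearson r = 0.941, Spearman rho = 0.933), and the neuronal kinase Pak7 (r = 0.927, rho = 0.939). With the 2 libraries most distant from the median Mef2c level left out, r was 0.888 for Plxnd1 and 0.878 for Pak7. With the authors' normalized values it was 0.876 for Pak7 but 0.206 for Plxnd1, so the likeness of Plxnd1 depends on the scaling.

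Markers of neighbouring tissue were summed beside Mef2c. A list of 7 genes typical of neocortex (Cux2, Rorb, Tbr1, Fezf2, Lamp5, Rspo1 and Bmp3), chosen after the data were seen, summed to 359.7 CPM in 5xFAD male 8 and 272.2 CPM in 5xFAD female 4, the mice with the most Mef2c, against a median of 193.1 CPM over all 19 libraries. The sum was 149.7 CPM in knock-in female 1, 153.4 CPM in 5xFAD male 7 and 161.7 CPM in 5xFAD male 10, the mice with the least Mef2c. The order was not the same throughout. 5xFAD male 6, the third highest in Mef2c by CPM, had a sum of 189 CPM. In the authors' normalized values its Mef2c was 3386, below 3905 in knock-in male 6, so its place depends on the scaling. The lowest sum, 146.8 CPM, was that of 5xFAD female 2, with Mef2c at 145.1 CPM. Only the sum is given, so whether each of the 7 genes followed it is not shown. None of the 7 genes passed between genotypes over both sexes or in females. The part of neighbouring tissue in the Mef2c values was not tested.

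Among the other members, Sorl1 was most like Sipa1l1, a postsynaptic GTPase regulator (r = 0.971, and 0.882 with the authors' values). Bin1 was most like the splicing-related Sugp1 (0.916, and 0.892). Ptk2b was most like Ppp1r13b (0.910, and 0.901), Picalm like the Wnt receptor Fzd6 (0.857, and 0.616), and Cd2ap like the kinase Stk38 (0.895, and 0.761). Second for Cd2ap came Fcho2, an early factor of clathrin pits (0.888, and 0.910). Fermt2 was most like Naf1 (0.900), but with the authors' values r was 0.223, so that likeness depends on the scaling.

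The pathways around these genes were read through 8 lists with 179 genes, of which 178 were tested (Mef2b failed the filter). The lists were chosen with earlier results of these data known, so their counts are a description only. Over both sexes 0 of 178 passed between genotypes, beside 0.022% of all genes. The nearest were integrin genes. Itgb5, an integrin beta subunit of glia and other cells, stood at 85.2 ± 10.5 CPM in 5xFAD mice (SD, n = 10) and 117 ± 22.1 CPM in knock-in mice (SD, n = 9), a log2 difference of 0.46 (SE 0.09, edgeR adjusted p = 0.0805). Itgb1, the subunit most integrins share, differed by 0.27 (adjusted p = 0.225), and Fermt3, the kindlin of blood and microglial cells, by 0.39 (0.26). The list of integrins, kindlins and focal adhesion genes had 25 of 33 members above 0 and a median of 0.10, beside 49.9% above 0 and a median of -0.00031 over all tested genes with a symbol. Of 15 microglia markers 0 passed over both sexes, with a median log2 change of 0.41, and their sum was 717 to 1184 CPM in 5xFAD mice and 956.5 to 1592 CPM in knock-in mice. In males alone it was 717 to 964.9 CPM and 956.5 to 1429 CPM. The part of microglia in the integrin values was not tested.

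In females 8 of 178 pathway genes passed (4.49%, beside 5.56% of all genes), 5 higher (beside 1.13% of all genes) and 3 lower (beside 4.43%) with the knock-in. The first 5 were Itgb8, which activates TGF-beta (59.4 ± 13.3 to 99.4 ± 18.4 CPM, log2 change 0.74), Itgb5 (89.1 ± 12.5 to 129 ± 25.7 CPM, 0.53), Itgb1 (58.2 ± 5.43 to 77.1 ± 9.03 CPM, 0.41), the endosomal Rab5 activator Rin2 (33.9 ± 4.07 to 44.3 ± 3.33 CPM, 0.39) and the actin linker Parva (69.6 ± 10.1 to 89.6 ± 7.6 CPM, 0.36). The SDs are over 5 and 4 mice, and the edgeR adjusted p values were 0.018, 0.0241, 0.0241, 0.0252 and 0.0447. The lower 3 were Hdac7, a deacetylase that represses MEF2 factors (33.3 ± 2.64 to 17.2 ± 3.43 CPM, -0.95), the receptor Epha10 (46.7 ± 8.89 to 29 ± 4.2 CPM, -0.69) and the clathrin pit factor Fcho1 (66.7 ± 7.62 to 47.8 ± 9.75 CPM, -0.48). Their edgeR adjusted p values were 0.0111, 0.0197 and 0.0461. Itgb8, Parva, Epha10 and Fcho1 are named because they passed, outside the rule for named genes.

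These 8 calls rest on few libraries. Without knock-in female 2 or without knock-in female 4, 0 pathway genes and 0 of all genes passed in females (3403 and 3027 genes at an unadjusted p below 0.05), and without 5xFAD female 1 or 4, 2 and 5 pathway genes did. Without knock-in male 10, 15 passed. The noncoding level had separate ranges in the 2 genotypes of females, so a fit with both can hardly tell level from genotype. With that level as a covariate 0 passed. The log2 change was then 0.52 for Itgb5, 0.45 for Itgb8 and 0.34 for Rin2, and -0.36 for Epha10. It was nearer 0 for Parva (0.19), Itgb1 (0.17), Hdac7 (-0.03) and Fcho1 (-0.02). Scaling by library size alone gave 1 higher and 7 lower in place of 5 and 3. In the same females, 3 of 12 astrocyte, 3 of 5 erythrocyte, 1 of 12 endothelial and 1 of 8 ependymal marker genes were higher past the threshold. Of interneuron genes 1 of 10 was lower. Of all genes 1.13% were higher and 4.43% lower. Among microglia (15 tested), oligodendrocyte (12), oligodendrocyte precursor (10), mural (10) and leptomeningeal fibroblast (10) genes 0 passed in females. The same held for pan-neuronal (10), pyramidal (9) and dentate granule cell (8) genes. The summed astrocyte markers were 4866 to 5575 CPM in 5xFAD females and 6217 to 7289 CPM in knock-in females, and the endothelial markers 355.9 to 394.7 and 437.5 to 474.7 CPM. Choroid plexus markers, of which 0 of 10 passed, summed to 860.6 to 7129 CPM in 5xFAD females and 5055 to 15892 CPM in knock-in females. The part of these cell types in the pathway values was not tested. In males 0 of 178 genes passed. The interaction also gave 0 of 178, so none of the 8 was shown to differ between the sexes.

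**Figure D4:**
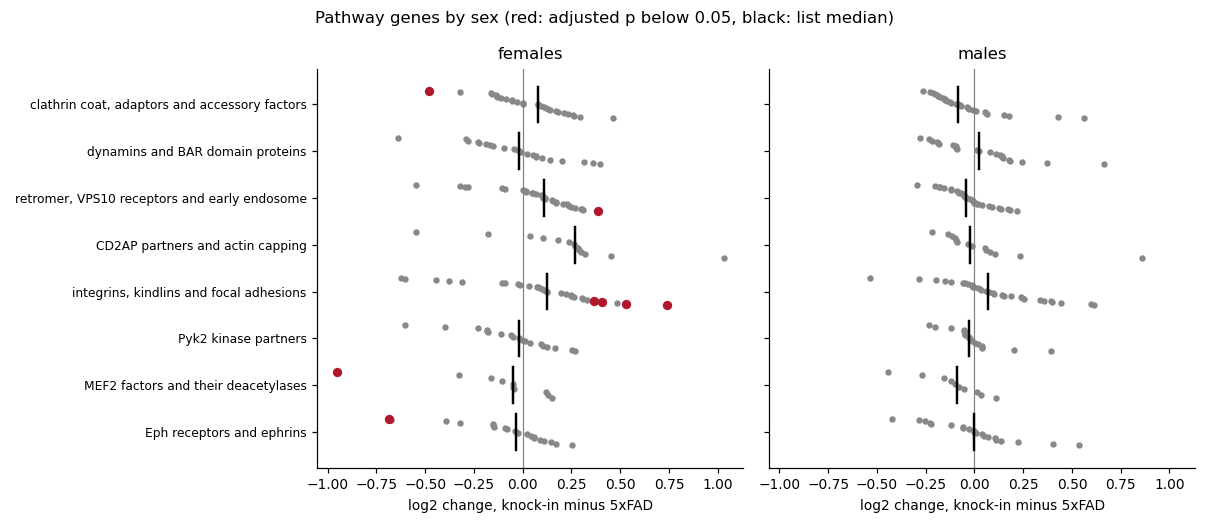
Log2 change with the knock-in (x axis) of the tested genes of 8 pathway lists in females and in males, 1 point per gene, with the list median as a black bar and genes past the threshold in red. In females 5 genes are higher and 3 lower past the threshold, 4 of the 5 in the integrin list, and in males there are 0.

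By list, the clathrin coat and adaptor genes (29 tested) had 1 lower in females (Fcho1), beside 4.43% of all genes, and a median of 0.08 there. Over both sexes the lowest p in that list was that of Eps15l1 (-0.17, edgeR adjusted p = 0.396). The dynamin and BAR domain list had 0 of 23 past the threshold in females, with a median of -0.02, and its lowest p over both sexes was that of Snx9 (0.25, edgeR adjusted p = 0.348). The retromer, VPS10 receptor and early endosome list, to which Sorl1's relatives belong, had 1 of 32 higher in females (Rin2), beside 1.13% of all genes. In that list 26 of 32 were above 0 in females, with a median of 0.11, beside 51.6% of all tested genes above 0. The partners of CD2AP had 0 of 14 past the threshold, 12 of 14 above 0 and a median of 0.27 in females, beside a median of 0.01 over all tested genes with a symbol. In males 6 of 14 were above 0, beside 51.7% of all tested genes. Sh3kbp1, the close relative of CD2AP, differed in females by 0.30 (edgeR adjusted p = 0.0733) and in males by 0.06 (0.94).

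The partners of PYK2 had 0 of 19 past the threshold in females, with a median of -0.02. In the list of MEF2 factors and deacetylases 1 of 10 was lower in females (Hdac7), beside 4.43% of all genes. Over both sexes 2 of 10 were above 0, beside 49.9% of all tested genes. Hdac9, a further MEF2 repressor, was at 48.1 ± 7.69 CPM in 5xFAD males (SD, n = 5) and 35.4 ± 3.32 CPM in knock-in males (SD, n = 5), a log2 difference of -0.44 (edgeR adjusted p = 0.433). The Eph receptors and ephrins had 1 of 21 lower in females (Epha10), beside 4.43% of all genes. Ephb4, an endothelial receptor, differed by 0.34 over both sexes (edgeR adjusted p = 0.36).

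Ptk2b and Clu, the gene that carries the knock-in, are close neighbours on mouse chromosome 14, with Gulo, Adam2, Ephx2 and Chrna2 between them. Clu itself stood at 979.4 ± 120.1 CPM in 5xFAD mice (SD, n = 10) and 1069 ± 214 CPM in knock-in mice (SD, n = 9), a log2 difference of 0.13 (edgeR adjusted p = 0.664). These counts do not check the genotype labels, since what the knock-in changes is not spelled out. The interval and the 6 named protein-coding genes on each side hold 18 genes, of which 14 were tested. None passed between genotypes over both sexes (lowest edgeR adjusted p = 0.262), in females (0.0685), in males (0.674) or in the interaction (0.276). The lowest value in females was that of Pbk, a kinase of dividing cells, at 0.31 ± 0.22 CPM in 5xFAD (SD, n = 5) and 0.92 ± 0.43 CPM in knock-in females (SD, n = 4). Ephx2, an epoxide hydrolase inside the interval, differed by 0.23 over both sexes (edgeR adjusted p = 0.373). Trim35, beyond Ptk2b, stood at 193.3 ± 19.4 CPM in 5xFAD mice (SD, n = 10) and 193.2 ± 15 CPM in knock-in mice (SD, n = 9).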

How the data were processed

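RNA of 19 hippocampi was measured by bulk RNA sequencing, 1 library per mouse. Seurat, DESeq2, FastQC and Salmon were used with the genome build mm39, per the submitters' processing notes, which give no versions or roles here. The authors deposited counts per gene as whole numbers. They also deposited normalized counts, a signal in which each count is divided by a factor for that gene and library, and variance-stabilized values on a log2 scale, which the authors made and which entered no test here. In the normalized table the factors of a gene have a geometric mean of 1 over all 19 libraries, so both sexes were scaled together. Labels name 2 types of sequencer without saying which library ran on which, and give no batch.

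Symbols, biotypes and lengths came from GENCODE M21 on GRCm38, matched for 20023 of 20655 gene IDs. As the authors' build differs, no gene coordinates are given. Promoter windows came from RefSeq on GRCm38.p6. Totals were 17.28 to 25.2 M counts per library, where M stands for mega.

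The counts went into edgeR 4.0.16 (R 4.3.3, TMM scaling, filterByExpr on the 4 groups with a minimum of 10 counts, robust quasi-likelihood fit), which left 18204 genes. P-values were adjusted by Benjamini-Hochberg over all of them, and 0.05 was the threshold. The genotype effect had sex as a covariate, and the other 5 comparisons came from 1 model with a mean per group. CPM values use TMM factors. Scaling factors were compared with limma 3.58.1 within each sex, on genes with at least 10 counts in every library of the sex. Likeness was Pearson's r of log2 CPM (prior count 2) with group means removed, among protein-coding genes of mean log2 CPM of at least 1. Alternatives were DESeq2 1.42.0, limma-voom, other scalings and filters, a noncoding covariate, a replicate block, the authors' normalized values (pseudocount 1), the library set, and leaving out each library in turn. The test was checked on simulated data.

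Named genes are the 8 members, the 3 genes of lowest p in the genotype effect per pathway list (as far as described), the neighbours of Ptk2b and Clu, and the 3 genes most like each member (as far as described). The members and lists were chosen with earlier results of these data known. The 8 members were named from human genetics, not from these values.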

Additional observations from a re-analysis of the deposited data

Results flagged for a closer look

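Each of the 8 members was checked in each of the 4 groups for a library far from the others, 32 checks in all, of which chance alone flags about 1 in 20. There was 1. Fermt2 in 5xFAD male 6 stood at 101.4 CPM, with the next of the 5 mice at 78.2 CPM and the lowest at 70.1 CPM, so the gap took up 0.741 of the range. Without that mouse the log2 change of Fermt2 with the knock-in was 0.12 in males, against 0.02 with it, and 0.12 over both sexes, against 0.07. Cd2ap was also highest in this mouse, at 49.9 CPM. In the authors' normalized values the mouse was highest for neither gene (Fermt2 1770, against 1877 in knock-in male 6). Of the 19 libraries, its scaling factors had the most negative correlation with GC content (r = -0.608). The part of the scaling in this flag was not tested.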

How the results depend on the processing

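None of the 7 tested members passed the threshold in any comparison run under 33 settings, of which 19 each left out 1 library. All 6 comparisons were run except with the replicate block (4), the authors' values within a sex (2) and within each library set (1). No call among the members changed. Of 868 log2 changes recomputed for genotype and its interaction with sex, 798 kept their sign and 70 did not, 36 of these on leaving out a library, and all 70 had an adjusted p above the threshold before and after. Over both sexes the sign turned with the noncoding covariate for Bin1 (0.044), Picalm (-0.016), Cd2ap (0.031) and Ptk2b (-0.051), within the 7-library set for Bin1 (0.056), Picalm (-0.030), Cd2ap (0.10) and Sorl1 (-0.0059), within the 12-library set for Ptk2b (-0.0091), and for Sorl1 with library size alone (-0.0025) and with the authors' normalized values (-0.011). In females it turned for Cd2ap (0.54) and Sorl1 (-0.032) with the noncoding covariate, for Sorl1 with limma-voom (-0.0028) and library size alone (-0.088), and for Fermt2 with the authors' values, within the sex and over all libraries (-0.028 in each). In males those values turned Cd2ap (0.0051), Sorl1 (-0.023) and Mef2c (0.015) in both ways. In the interaction it turned for Cd2ap with limma-voom (-0.063), library size alone (-0.14), the library set (-0.12) and the authors' values (-0.22). For Sorl1 it turned with no filter (0.018), the replicate block (0.022), the library set (0.032) and the authors' values (0.026), for Fermt2 with library size alone (-0.018) and the authors' values (-0.10), and for Mef2c with the noncoding covariate (0.21). Library size alone moved the median of all genes in the interaction to -0.15. In females the noncoding covariate had separate ranges in the 2 genotypes, so its fit can hardly tell level from genotype there. The causes of these changes in sign were not tested.

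Leaving out 1 library moved Bin1 between -0.093 and 0.0043 and Sorl1 between -0.032 and 0.077 over both sexes. Sorl1 moved between -0.13 and 0.083 in females. In males Cd2ap moved between -0.25 and 0.086, Sorl1 between -0.045 and 0.14, Fermt2 between -0.031 and 0.12, and Mef2c between -0.40 and 0.15. In the interaction Cd2ap moved between -0.21 and 0.15, Sorl1 between -0.17 and 0.057, and Mef2c between -0.47 and 0.12.

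Of 178 pathway genes, 0 passed over both sexes, and 1 did with DESeq2 and 1 within the 12-library set. In females 8 passed, against 17 with DESeq2, 0 with the noncoding covariate, 0 with the replicate block, 2 with the authors' values within the sex and 3 over all libraries. In males DESeq2 gave 1. In the interaction 0 passed, against 11 with DESeq2, 4 with library size alone, 1 with the stricter filter and 1 without robust estimation. Leaving out 1 library gave 0 to 1 over both sexes, 0 to 15 in females, 0 in males and 0 to 6 in the interaction. Over all genes, the settings gave 0 to 129 calls over both sexes, 0 to 1810 in females, 0 to 19 in males, 0 to 766 in the interaction, 6 to 16 between sexes in 5xFAD and 7 to 510 in knock-in mice. In females 0 passed without knock-in female 2 or 4, 364 without 5xFAD female 1 and 439 without 5xFAD female 4.

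The replicate block used the numbers shared between titles. Same-numbered mice are different animals. Their deviations correlated at -0.203 to 0.119 over 9 pairs, 2 of them above 0.1, and 1 of 9 matched its own number best. No pairing beyond the number was seen, and shared handling was not tested. With the block the change in females was 0.24 for Picalm, 0.28 for Ptk2b and -0.15 for Bin1, none past the threshold, and 0 of all genes passed against 1013 without it. P-values set a difference between group means against the spread between mice. Of the members, Epha1 alone failed the low-count filter.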

Other observations

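Further genes with the lowest p of their pathway list over both sexes did not pass the threshold. Dab2, a clathrin adaptor for lipoprotein receptors, stood at 12.8 ± 5.5 CPM in 5xFAD mice (SD, n = 10) and 17 ± 6.04 CPM in knock-in mice (SD, n = 9), a log2 difference of 0.44 (edgeR adjusted p = 0.421). The adaptor kinase Aak1 stood at 468.4 ± 37.4 and 423.8 ± 61.6 CPM, a difference of -0.15 (0.462). Fnbp1l, an F-BAR protein, stood at 61.3 ± 19.1 and 46.7 ± 11 CPM, a difference of -0.39 (0.391). Cdh1, the epithelial cadherin, was low in both genotypes, at 0.74 ± 0.41 and 1.42 ± 0.70 CPM, a difference of 0.94 (0.331).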
